A study of Mus musculus with 12 samples.

Results

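The collagens of the mouse mammary gland were taken as every gene whose symbol reads Col, a type number, the letter a and a chain number, after the Ensembl gene IDs of the count files had been matched to symbols. The rule found 44 genes among the 55487 listed, and it used no expression value. They fell into 11 fibrillar collagens, 8 collagens of basement membranes, 6 beaded filament collagens, 9 fibril-associated collagens (FACIT), 4 membrane-spanning collagens and 6 anchoring, short-chain and remaining collagens. Of the 44 genes, 42 passed the filter on low counts and were tested. The cartilage genes Col2a1 and Col10a1 did not pass.

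RNA had been sequenced from whole right thoracic mammary fat pads of female C57BL/6 mice, a common inbred strain, at postnatal day 84. The mice had received folic acid, the synthetic form of the vitamin folate, and the pads were taken 4 weeks after that supplementation. There were 6 libraries from a group given 5 mg/kg and 6 from a group given 1 mg/kg, so the groups differed in the stated amount of folic acid. The series title places the intake in juvenile and peri-pubertal life and names the mammary transcriptome as the outcome. The labels do not say whether mg/kg refers to diet or body weight, nor whether each library of a group came from its own animal, so p-values measure the spread between these samples.

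Collagens are the main structural proteins of the extracellular matrix. Each molecule is a trimer of chains wound around each other in a triple helix, which requires a repeat of glycine and 2 further residues, written Gly-X-Y, along the chain. Fibrillar types I, III and V build the fibers of connective tissue, type IV builds the sheet of basement membranes under epithelium and around vessels and fat cells, and type VI forms beaded filaments around cells. In the mammary gland these proteins make up the stroma that surrounds ducts and adipocytes and into which ducts grow at puberty. Chains are made in the endoplasmic reticulum by fibroblasts, adipocytes, vessel cells, Schwann cells and epithelial cells, each with its own set of types.

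The libraries held 48.2 to 75.3 M gene-assigned reads (M for mega), of which the mitochondrial genes mt-Rnr1 and mt-Rnr2 took 39.2% to 59.5%. Reads outside annotated genes made up 5.58% to 26.6% of all reads tallied, with 1 mg/kg replicate 6 and 5 mg/kg replicate 6 (20.8%) at the top. Every library held adipocyte markers (summed level 2236 to 9289 CPM, where CPM are counts per mega-read after scaling), luminal epithelial markers (113 to 724 CPM) and, in addition, skeletal muscle markers (16366 to 77435 CPM). B cell markers summed to between 367 and 904 CPM in 5 mg/kg replicates 1, 2 and 3 and in 1 mg/kg replicates 1, 5 and 6, to 120 CPM in 1 mg/kg replicate 3, and to at most 9.37 CPM in the other 5 libraries. In a whole tissue, fewer cells of a type and less RNA per cell cannot be told apart.

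The repeat that defines the family was read from the coding sequence of 1 transcript per gene. All 44 collagens had an unbroken run of at least 10 Gly-X-Y codon triplets, against 54 of 21709 other coding genes (0.249%). The longest run was 216 to 344 triplets in the fibrillar collagens and 30 to 66 in the basement membrane collagens, whose repeat is broken by short interruptions. It was 37 to 87 in the beaded filament collagens, 32 to 113 in the FACIT collagens, 40 to 56 in the membrane-spanning collagens and 23 to 75 in the remaining ones. Fibrillar genes are also built from exons of 54 bases, each coding 6 triplets. Such exons made up 48.6% of 627 internal coding exons in the fibrillar genes and 4.43% of 361 in the basement membrane genes. A 54-base exon from each of the 3 most abundant fibrillar genes is shown because the repeat that unites the family can be read in it directly. Capitals mark the codons for glycine (GGN), the sequences are in coding orientation, and all come from GENCODE vM21 transcripts on GRCm38. The Col1a1 exon is exon 8 at chr11:94939904-94939957 (+), the Col1a2 exon is exon 8 at chr6:4515481-4515534 (+), and the Col3a1 exon is exon 6 at chr1:45325360-45325413 (+).
Col1a1: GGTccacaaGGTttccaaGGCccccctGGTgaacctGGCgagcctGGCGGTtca
Col1a2: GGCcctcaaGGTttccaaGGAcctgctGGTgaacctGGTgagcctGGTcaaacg
Col3a1: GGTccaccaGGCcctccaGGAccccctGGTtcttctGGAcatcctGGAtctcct

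Mean collagen levels ran from 0.0103 RPKM for Col2a1 to 117 RPKM for Col3a1. Levels are given in RPKM, reads per kilobase of exon per mega-read, so that genes of different length can be compared. Col3a1, the chain of type III fibrils, had the highest mean and was the only member above 50. Col4a1 (44.0 RPKM), Col1a1 (34.9), Col4a2 (30.7), Col6a1 (29.7) and Col1a2 (29.2) followed, and 12 members in all had a mean of at least 10 RPKM. A further 9 lay between 1 and 10, 23 lay under 1, and 6 of these lay under 0.1. Neighbors in this order often overlapped in single libraries: Col1a1 ranged from 8.98 to 80.6 RPKM and Col1a2 from 11.3 to 56.5. The 2 untested genes had 1 to 16 reads per library (Col2a1) and 0 to 6 (Col10a1).

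**Figure D1:**
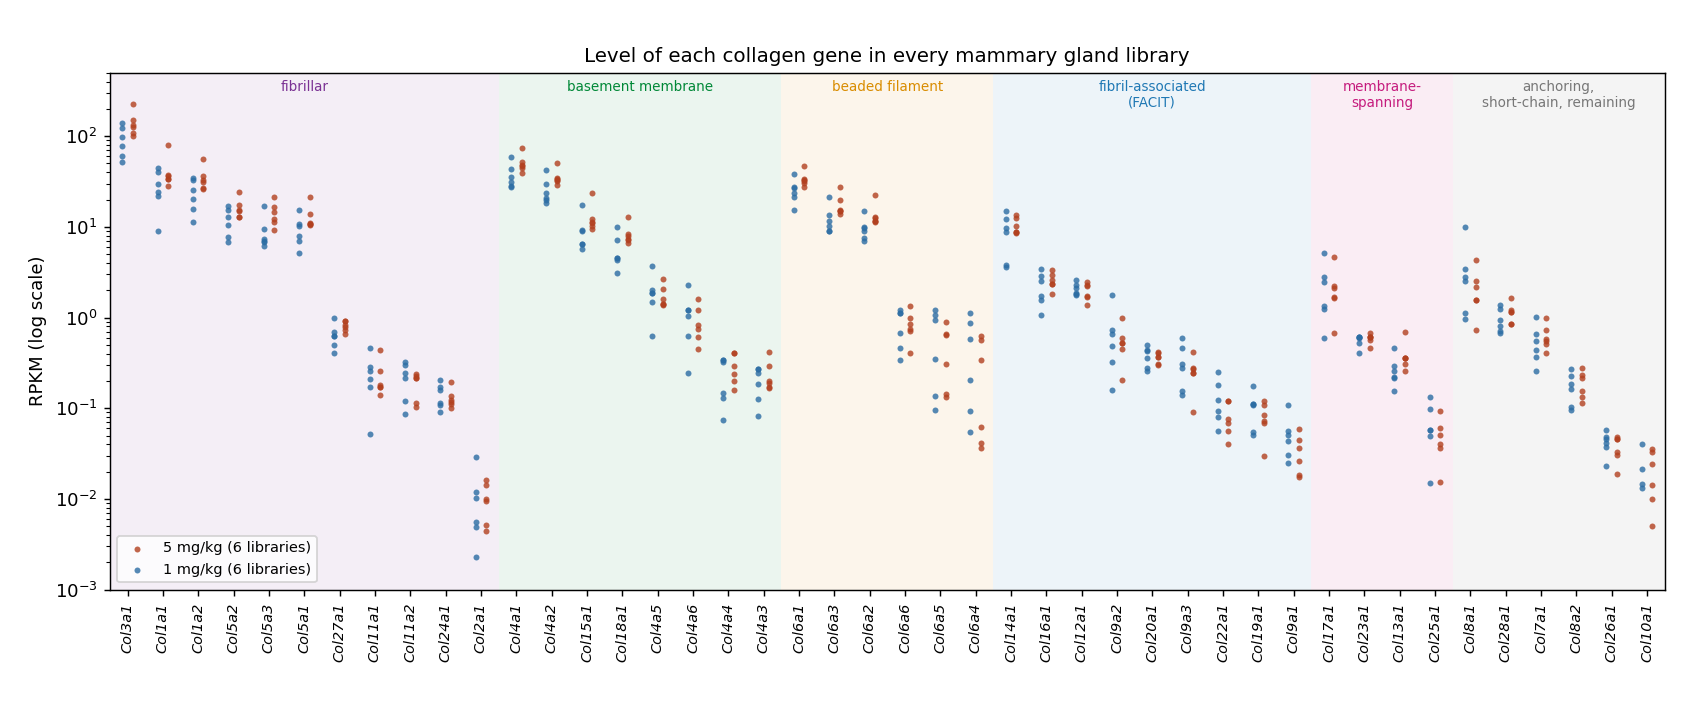
Level of each of the 44 collagen genes, grouped by class, as RPKM on a log scale; each point is 1 library, blue for 1 mg/kg and red for 5 mg/kg (6 libraries each). Col3a1 is highest, types I, III, IV, V and VI fill the upper range, and the groups overlap for each gene; the 2 values of 0 reads of Col10a1 at 1 mg/kg cannot be drawn on this axis.

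Fibrillar genes supplied the largest share of the family's RNA in every library. Their share of summed collagen RPKM was 56.1 ± 2.97% in the 5 mg/kg group (mean ± SD, n = 6) and 52.5 ± 3.41% in the 1 mg/kg group (n = 6), and it ran from 46.3% to 60.0% in single libraries. Basement membrane genes held 21.8% to 28.1%, beaded filament genes 11.8% to 20.0% and FACIT genes 2.30% to 6.10%. The membrane-spanning genes held 0.398% to 1.41%, and the remaining class 0.566% to 2.97%. Col1a1, Col1a2 and Col3a1 together made up 36.6% to 50.5%. The family's total ranged 3.64-fold, from 199 RPKM in 1 mg/kg replicate 5 to 723 RPKM in 5 mg/kg replicate 6. The share of the fibrillar class ranged 1.30-fold and that of the basement membrane class 1.29-fold, whereas the share of the small remaining class ranged 5.25-fold. The top of that last range was 1 mg/kg replicate 2, where Col8a1 alone held 9.98 of the class's 12.7 RPKM. The next highest share was 1.57%, in 1 mg/kg replicate 3.

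**Figure D2:**
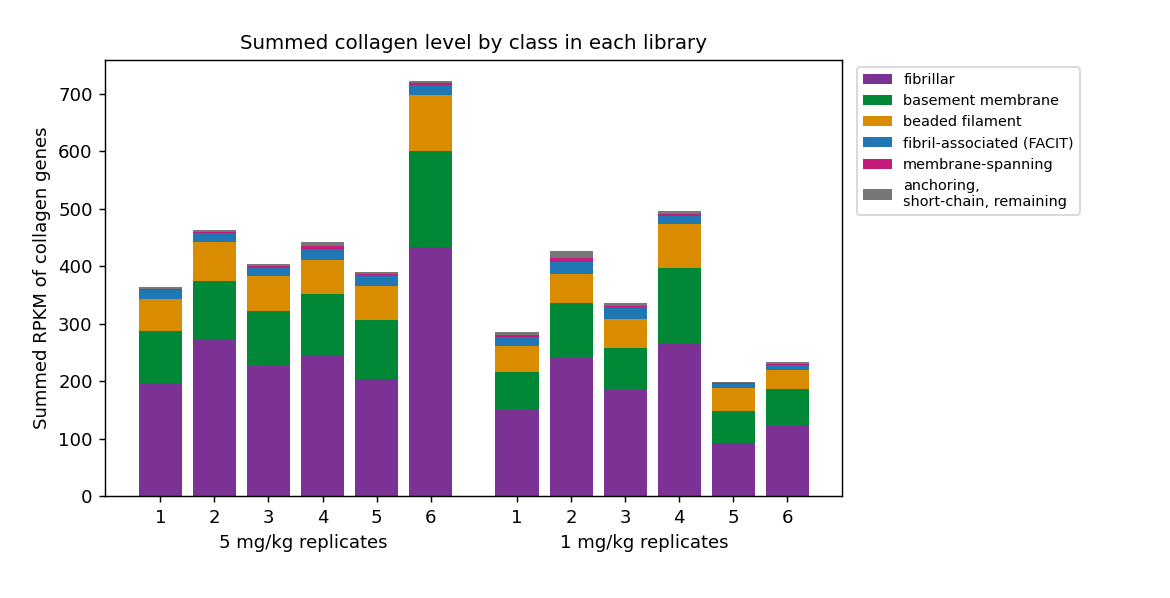
Summed RPKM of the collagen genes in each of the 12 libraries, stacked by class; bars start at 0. The total runs from 199 RPKM in 1 mg/kg replicate 5 to 723 RPKM in 5 mg/kg replicate 6, and fibrillar genes form the largest segment in every bar.

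No collagen gene passed the test between 5 mg/kg and 1 mg/kg folic acid. The lowest adjusted p among the 42 tested members was 0.943 (edgeR's quasi-likelihood test with Benjamini-Hochberg adjustment over 18647 genes), and across all genes 0% passed. At an unadjusted p under 0.05, 2 members were called, Col5a3 and Col6a2, both higher at 5 mg/kg; over all genes 359 (1.93%) reached that level in either direction and 1.34% did so with a higher level at 5 mg/kg. DESeq2 put 5 members under that unadjusted level and limma-voom 7, and neither passed any member after adjustment. Over all genes DESeq2 put 776 of 48171 under it and limma-voom 360 of 18647. In edgeR the count of members depended on single libraries. It was 13 without 1 mg/kg replicate 4, 5 without 1 mg/kg replicate 2 and 4 without 5 mg/kg replicate 5. Over all genes these fits put 1445 of 18926, 328 of 18990 and 211 of 19006 under that level. The member count was 1 without 5 mg/kg replicate 2 or 3. It was 0 without 5 mg/kg replicate 6 or without 1 mg/kg replicate 1, 3 or 5. Without 5 mg/kg replicate 2, 3 or 6, all genes gave 394 of 18882, 524 of 18796 and 802 of 18912. Without 1 mg/kg replicate 1, 3 or 5, they gave 205 of 18816, 496 of 18991 and 311 of 18789. No member's groups were free of overlap, against 8 of all genes (0.0429%).

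The log2 fold change (5 mg/kg over 1 mg/kg) was positive for 24 of the 42 members and negative for 18, with a median of 0.15; over all genes tested 47.2% were positive and the median was -0.018. By class, the median was 0.48 for fibrillar genes (7 of 10 positive), 0.38 for basement membrane genes (6 of 8) and 0.22 for beaded filament genes (4 of 6). It was -0.33 for FACIT genes (2 of 9 positive), 0.0029 for membrane-spanning genes (2 of 4) and 0.11 for the remaining genes (3 of 5). The abundant members leaned one way: of the 19 with a mean of at least 10 CPM, 15 were positive with a median of 0.47, where 49.5% of all genes at that level were positive. Of the 23 tested members under 10 CPM, 9 were positive with a median of -0.12, where the share over all such genes was 45.5%. The 13 chains of types I, III, V, VI (α1 to α3), IV (α1 and α2), XV and XVIII were all positive, between 0.41 and 0.67, and for each of them all 6 libraries at 5 mg/kg lay above the median of the 1 mg/kg libraries. These 13 were singled out after their values were seen, and they vary together across libraries, so they do not count as 13 separate observations.

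**Figure D3:**
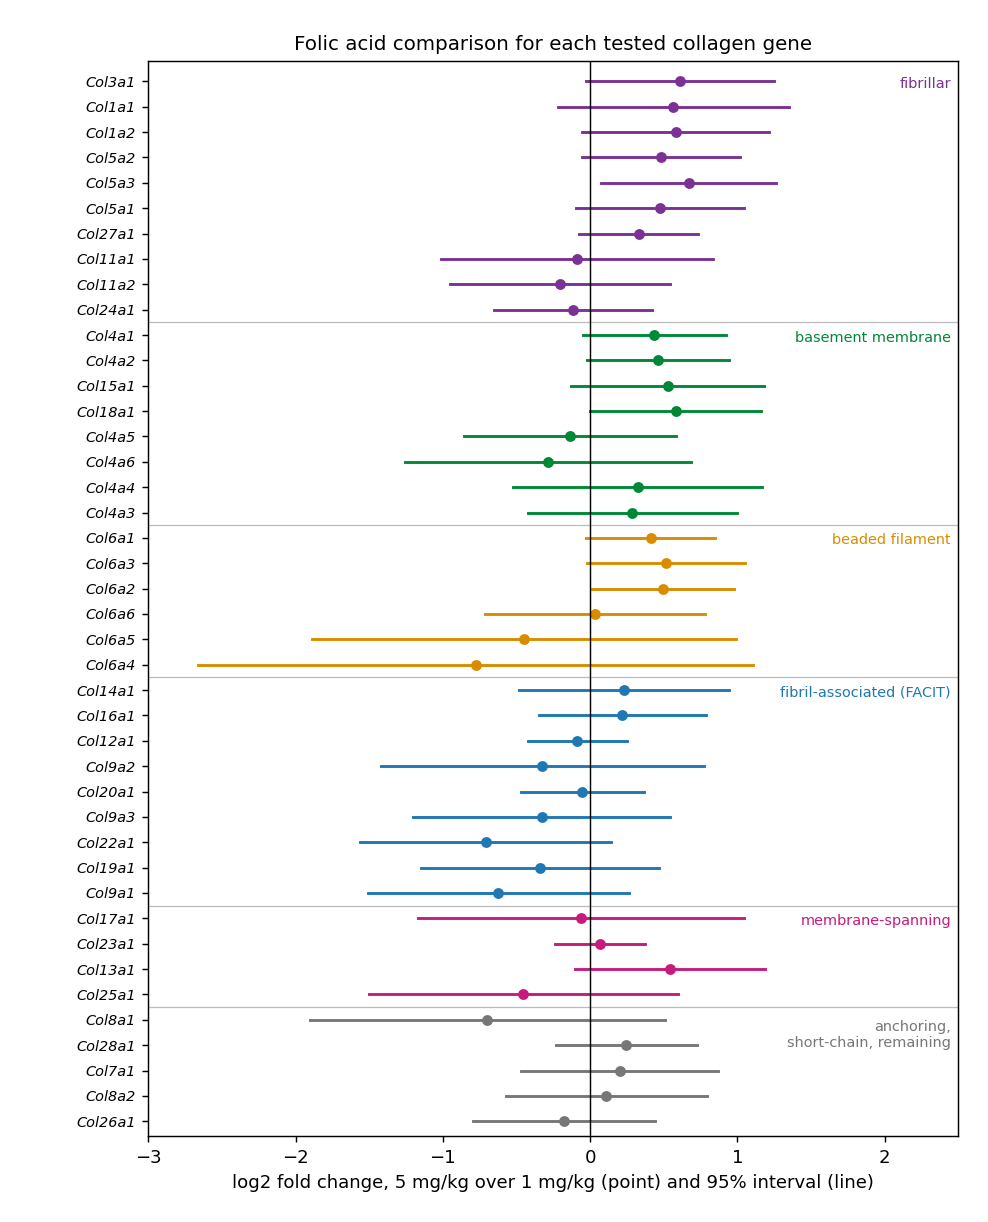
Log2 fold change (5 mg/kg over 1 mg/kg) of the 42 tested collagen genes with 95% intervals from edgeR's quasi-likelihood fit, grouped by class; the vertical line marks no difference. The intervals of Col5a3 and Col6a2 lie above 0 before adjustment, and no gene passed after it.

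Type I and type III fibrils are the bulk of stromal collagen. Col3a1 (chr1:45311538-45349706, GRCm38) lay at 100 RPKM in the lowest, 130 in the median and 228 in the highest library at 5 mg/kg, and at 52.4, 88.0 and 141 RPKM at 1 mg/kg. The groups overlapped, and the highest value came from 5 mg/kg replicate 6 and the lowest from 1 mg/kg replicate 5. Hereafter the ± on a log2 fold change is its standard error. That of Col3a1 was 0.61 ± 0.29 (95% interval -0.025 to 1.25).

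The type I chains showed the same order of libraries at both ends. Col1a1, the α1 chain (chr11:94936224-94953042), ran from 28 through a median of 35.3 to 80.6 RPKM at 5 mg/kg and from 8.98 through 26.9 to 44.0 at 1 mg/kg. Col1a2, the α2 chain (chr6:4504814-4541544), ran from 26.1 through 32.4 to 56.5 RPKM and from 11.3 through 22.8 to 35.0. In both, 5 mg/kg replicate 6 stood above the rest of its group and 1 mg/kg replicate 5 below the rest. Fitted log2 fold changes were 0.57 ± 0.36 for Col1a1 (95% interval -0.22 to 1.35) and 0.58 ± 0.29 for Col1a2 (-0.055 to 1.22). Without 5 mg/kg replicate 6 the value of Col1a1 was 0.27. Leaving out both of those libraries together, an alternative added after the data were seen, brought Col1a1 to 0.082 and Col1a2 to 0.25.

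Type V collagen is incorporated into type I fibrils and limits their diameter. Col5a3, its α3 chain (chr9:20770050-20815067), had the smallest p of the family and was 1 of the 2 under 0.05 before adjustment. Its level at 5 mg/kg was 9.27, 13.5 and 21.6 RPKM in the lowest, median and highest library, and 6.16, 7.20 and 17 RPKM at 1 mg/kg. At 1 mg/kg, replicate 4 stood alone and lay above 5 of the 6 libraries at 5 mg/kg. It also held the highest summed levels of the adipocyte list (9289 CPM) and the endothelium list (455 CPM). The difference came to a log2 fold change of 0.67 ± 0.27 (95% interval 0.076 to 1.26; edgeR adjusted p = 0.943). The median log2 fold change of the whole fibrillar class was 0.48. That median was 0.33 with the adipocyte list level as a term in the fit and 0.27 with the fibroblast list level. Col5a3 itself stayed between 0.37 and 0.96 under all alternatives. The part of adipocytes and fibroblasts was not tested further. Of the 4 rarer fibrillar genes tested, Col27a1 (mean 0.721 RPKM) had a log2 fold change of 0.33 ± 0.19, with all 6 libraries at 5 mg/kg above the 1 mg/kg median. Col11a1, Col11a2 and Col24a1, with means of 0.234, 0.200 and 0.136 RPKM, had -0.091 ± 0.43, -0.21 ± 0.35 and -0.12 ± 0.25.

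In the basement membrane class the ubiquitous type IV chains dominated. Col4a1 (chr8:11198423-11312826) lay at 39.5, 47.1 and 74.3 RPKM in the lowest, median and highest library at 5 mg/kg and at 27.4, 33.3 and 58.7 RPKM at 1 mg/kg. Col4a2 (chr8:11312805-11449287) lay at 29.3, 33.2 and 51.3 RPKM and at 18.5, 22.2 and 42.5. At 1 mg/kg, replicate 4 was highest in both and reached beyond 5 of the 5 mg/kg libraries, so the groups overlapped. The log2 fold change was 0.44 ± 0.22 for Col4a1 (95% interval -0.051 to 0.92) and 0.46 ± 0.22 for Col4a2 (-0.020 to 0.94).

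Col15a1 and Col18a1 code for collagens of the basement membrane zone that carry sugar chains, and Col18a1 is the source of the fragment endostatin. Col15a1 (chr4:47208161-47313167) ran from 9.37 through 11.2 to 23.5 RPKM at 5 mg/kg and from 5.68 through 7.71 to 17.3 at 1 mg/kg. Col18a1 (chr10:77052178-77166548) ran from 6.67 through 7.71 to 12.9 RPKM and from 3.12 through 4.59 to 10.01. The highest library of each group was the same in both genes, 5 mg/kg replicate 6 and 1 mg/kg replicate 4, and the groups overlapped. The endothelium list also had its highest sums there, 452 and 455 CPM, and its lowest sum was 354 CPM in 1 mg/kg replicate 6. The part of endothelium in these values was not tested. Col15a1 had a log2 fold change of 0.53 ± 0.30 (95% interval -0.13 to 1.18) and Col18a1 one of 0.58 ± 0.27 (-0.0017 to 1.16). That of Col15a1 was 0.27 without 5 mg/kg replicate 6 and 0.82 without 1 mg/kg replicate 4.

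The 4 less abundant type IV chains had their highest library elsewhere than Col4a1 and Col4a2, though Col4a4 only by a narrow margin. Col4a5 and Col4a6, which occur in the basement membranes of some epithelia and of smooth muscle, had their highest level in 1 mg/kg replicate 2 (3.7 and 2.31 RPKM) and their lowest in 1 mg/kg replicate 5 (0.629 and 0.245). The luminal and basal epithelium lists had their highest sums in 1 mg/kg replicate 2, 724 and 504 CPM. The luminal list had its lowest sum, 113 CPM, in 1 mg/kg replicate 5. Acta2, the most abundant gene of the basal list, is also on the mural cell list. The part of epithelium in the result was not tested. Col4a3 and Col4a4, known from kidney glomeruli and other specialized membranes, reached their highest level, 0.420 and 0.405 RPKM, in 5 mg/kg replicate 5. Col4a4 was nearly level, at 0.404 RPKM, in 5 mg/kg replicate 6, the highest library of Col4a1 and Col4a2. In 5 mg/kg replicate 5 the Schwann cell list was also at its maximum (325 CPM), and its part in the result was not tested. The log2 fold changes of these 4 chains ran from -0.29 to 0.32. Without strand, up to 5.65% of the Col4a3 exon length overlaps a gene on the opposite strand and its reads cannot be separated.

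Type VI collagen is deposited around fat cells and muscle fibers. Its α1 chain Col6a1 (chr10:76708792-76726168) lay at 27.7, 32.5 and 46.6 RPKM in the lowest, median and highest library at 5 mg/kg and at 15.5, 25.1 and 38.5 RPKM at 1 mg/kg. The α2 chain Col6a2 (chr10:76595762-76623630), a neighbor of Col6a1 on the same strand, lay at 11.4, 12.2 and 22.4 RPKM and at 7.06, 9.36 and 15.2. The α3 chain Col6a3 (chr1:90765923-90843971) lay at 13.9, 15.2 and 27.8 RPKM and at 9.0, 10.9 and 21.3. For all 3 genes, 1 mg/kg replicate 4 exceeded most libraries of the other group. In the order α1 to α3 the log2 fold changes were 0.41 ± 0.20 (95% interval -0.025 to 0.85), 0.50 ± 0.22 (0.016 to 0.97) and 0.52 ± 0.25 (-0.021 to 1.05), and the edgeR adjusted p = 0.943 was the same for the 3 genes. Without 5 mg/kg replicate 6, Col6a2 was at 0.30 and Col6a3 at 0.34.

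Col6a4, Col6a5 and Col6a6 code for alternative chains that can take the place of the α3 chain. Col6a4 had the widest spread of the family, 30.7-fold between its lowest and highest library, and Col6a5 spread 12.5-fold; both were singled out after their values were seen. Col6a4 stood at 2.94, 5.40, 4.89, 0.352, 0.310 and 0.529 CPM in 5 mg/kg replicates 1 to 6 and at 9.53, 0.789, 1.75, 0.470, 4.89 and 7.34 CPM in 1 mg/kg replicates 1 to 6. The 6 libraries at or above 2.94 CPM were the 6 libraries with B cell marker sums of 367 CPM or more, and the 5 at or below 0.789 CPM were those with sums of at most 9.37 CPM. Col6a5 had its 6 highest values, 6.01 to 11.3 CPM, in the same 6 libraries. T cell markers followed the B cell markers, at 161 CPM or more in these 6 libraries and at most 63.5 CPM elsewhere. The part of immune cells in these values was not tested. Between the groups, Col6a4 had a log2 fold change of -0.78 ± 0.87 (95% interval -2.66 to 1.11) and Col6a5 of -0.45 ± 0.66 (-1.89 to 0.99). For Col6a4, 3.39% of the exon length overlaps genes on the opposite strand. Col6a6 lay in another pattern, with its highest library at 5 mg/kg replicate 6 (1.33 RPKM), and had a log2 fold change of 0.033 ± 0.34.

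FACIT collagens sit on the surface of fibrils and link them to other matrix molecules. Col14a1 (chr15:55307750-55520803) was the most abundant, at 8.48, 9.53 and 13.6 RPKM in the lowest, median and highest library at 5 mg/kg and at 3.58, 9.30 and 15.1 RPKM at 1 mg/kg. The medians were close and the 1 mg/kg group was the wider, with replicates 5 and 6 at its low end. The log2 fold change was 0.23 ± 0.33 (95% interval -0.48 to 0.95), and it turned to -0.058 with the adipocyte list level as a term and -0.18 with the fibroblast list level.

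Col12a1, a long chain of dense connective tissue, was among the steadiest collagens. It lay at 1.37, 1.97 and 2.49 RPKM at 5 mg/kg and at 1.76, 2.0 and 2.57 RPKM at 1 mg/kg in the lowest, median and highest library. Its coefficient of variation over the 12 libraries was 18.0%, against a median of 37.4% for the collagens of at least 10 CPM. The log2 fold change was -0.087 ± 0.16 (95% interval -0.42 to 0.25) and turned to 0.019 without 5 mg/kg replicate 5 and to 0.025 with the adipocyte list level as a term.

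Col16a1 lay at 1.80, 2.48 and 3.32 RPKM at 5 mg/kg and at 1.06, 2.13 and 3.47 RPKM at 1 mg/kg, with overlapping groups. Its log2 fold change was 0.22 ± 0.26, and -0.013 without 5 mg/kg replicate 6 and 1 mg/kg replicate 5 together. Col22a1, known from tissue junctions such as that between muscle and tendon, had the smallest p of this class. Its level was 0.373, 0.669 and 1.11 CPM at 5 mg/kg and 0.516, 1.00 and 2.34 CPM at 1 mg/kg in the lowest, median and highest library, and its log2 fold change was -0.71 ± 0.39 (95% interval -1.56 to 0.14). The highest library was 1 mg/kg replicate 3, without which the value was -0.42 and which also held the highest skeletal muscle sum (77435 CPM); the part of muscle in the result was not tested. The type IX genes Col9a1, Col9a2 and Col9a3, best known from cartilage, all peaked in 1 mg/kg replicate 2, at 0.554, 5.49 and 2.32 CPM. That library also had the highest luminal and basal epithelium sums and the highest cartilage list sum, 13.2 CPM. Most of the 13.2 CPM came from 1 gene, Sox9, at 9.54 CPM. Acan, Matn1, Matn3 and Chad of that list were at 0 reads in at least 1 library. The part of cartilage or epithelium in these values was not tested. For Col9a3, 6.07% of the exon length overlaps Tcfl5 on the opposite strand.

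Membrane-spanning collagens are anchored in the plasma membrane of the cell that makes them. Col17a1 (chr19:47646344-47692094), a component of the hemidesmosomes of basal epithelial cells, was the most abundant of them. It lay at 0.671, 1.90 and 4.71 RPKM at 5 mg/kg and at 0.589, 1.91 and 5.19 RPKM at 1 mg/kg in the lowest, median and highest library. Its 2 highest libraries were 1 mg/kg replicate 2 and 5 mg/kg replicate 4. The basal epithelium list stood at 504 and 341 CPM there, and at 179 CPM in 1 mg/kg replicate 5, the lowest library of Col17a1. In 1 mg/kg replicate 4 the basal sum was 496 CPM and Col17a1 stood at 16.6 CPM, against 31.2 CPM in replicate 2. The basal sum leans on Acta2 (mean 118 CPM), which is also on the mural cell list. Krt5 and Krt14 had means of 11.1 and 13.5 CPM. The part of basal epithelium in these values was not tested. The log2 fold change was -0.061 ± 0.51 (95% interval -1.17 to 1.04), and its sign turned under 7 of the alternatives. Epidermal markers summed to 137 CPM in 5 mg/kg replicate 4 and to at most 18.3 CPM elsewhere, with Lor, Sprr1a and Flg at 0 reads in at least 1 library; their part in the Col17a1 value was not tested.

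Col13a1 and Col23a1 were lower and differed from each other in spread. Col13a1, which is known from the neuromuscular junction, lay at 1.2, 1.64 and 3.19 CPM at 5 mg/kg and at 0.711, 1.10 and 2.12 CPM at 1 mg/kg, and its log2 fold change was 0.54 ± 0.30 (95% interval -0.10 to 1.19) and 0.30 without 5 mg/kg replicate 6. All 6 libraries at 5 mg/kg lay above the 1 mg/kg median, yet the groups overlapped. Col23a1 had the smallest coefficient of variation of the tested members, 13.1%. It lay between 2.63 and 3.88 CPM at 5 mg/kg and between 2.35 and 3.52 CPM at 1 mg/kg, with a median of 3.47 CPM in both. Its log2 fold change was 0.067 ± 0.14 (95% interval -0.24 to 0.37), and it was -0.083 when scaled by library size alone, a scaling that moved the median of all genes to -0.16.

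In the remaining class, Col8a1, a short-chain collagen of vessel walls and of the cornea's inner membrane, was highest. It lay at 0.730, 1.87 and 4.26 RPKM at 5 mg/kg and at 0.954, 2.65 and 9.98 RPKM at 1 mg/kg in the lowest, median and highest library. A single library, 1 mg/kg replicate 2, stood far above the others of its group. Its log2 fold change was -0.70 ± 0.56 (95% interval -1.90 to 0.51), and it was -0.014 without that library.

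Col28a1, a chain with von Willebrand factor domains found around peripheral nerve, lay at 0.852, 1.14 and 1.64 RPKM at 5 mg/kg and at 0.679, 0.874 and 1.38 RPKM at 1 mg/kg. Its highest value came from 5 mg/kg replicate 5, where the Schwann cell list was at its maximum of 325 CPM, and its log2 fold change was 0.25 ± 0.22. The part of Schwann cells in that value was not tested. Col7a1, the chain of the anchoring fibrils that tie epithelial basement membranes to the stroma, lay at 0.403, 0.565 and 0.978 RPKM and at 0.259, 0.493 and 1.00 RPKM. Its log2 fold change was 0.20 ± 0.31 and turned to -0.12 without 5 mg/kg replicate 6 and 1 mg/kg replicate 5 together.

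Spread between libraries was larger for collagens than for genes at large. The median coefficient of variation over the 12 libraries was 39.7% for the 42 tested collagens and 29.5% for all genes tested, and at a mean of at least 10 CPM it was 37.4% for 19 collagens and 20.8% for all genes. The half-width of the 95% interval of the log2 fold change had a median of 0.66 for the collagens and 0.53 for all genes. Many of the highest and lowest values lay in few libraries, and the same count is not given here for all genes. Of the 42 members, 15 were highest in 5 mg/kg replicate 6, and 13 of these were among the 19 abundant ones; 25 were lowest in 1 mg/kg replicate 5, of which 14 were abundant. A further 12 were highest in 1 mg/kg replicate 2, among them Col17a1, Col8a1, Col9a2, Col4a5, Col4a6, Col25a1 and Col11a1.

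The libraries at the extremes also stood apart in other measures. The fibroblast list, 12 genes that include Dcn and Lum, summed to 1275 CPM in 5 mg/kg replicate 6, below the 1541 CPM of 5 mg/kg replicate 5, although collagen RPKM was 723 and 390 in these 2 libraries. It was lowest in 1 mg/kg replicates 6 (424 CPM) and 5 (737 CPM), the libraries with the lowest collagen totals (233 and 199 RPKM). By group the list summed to 1240 ± 233 CPM (5 mg/kg; mean ± SD, n = 6) and 1011 ± 393 CPM (1 mg/kg; n = 6), and the adipocyte list to 6060 ± 1143 and 4887 ± 2486 CPM. Without 5 mg/kg replicate 6 and 1 mg/kg replicate 5 together, the median log2 fold change was 0.18 for fibrillar genes, 0.19 for basement membrane genes and -0.0029 for all collagens tested. The basement membrane median was 0.037 with the adipocyte list level as a term and 0.050 with the fibroblast list level. The part of cell composition in these values was not tested further.

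**Figure D4:**
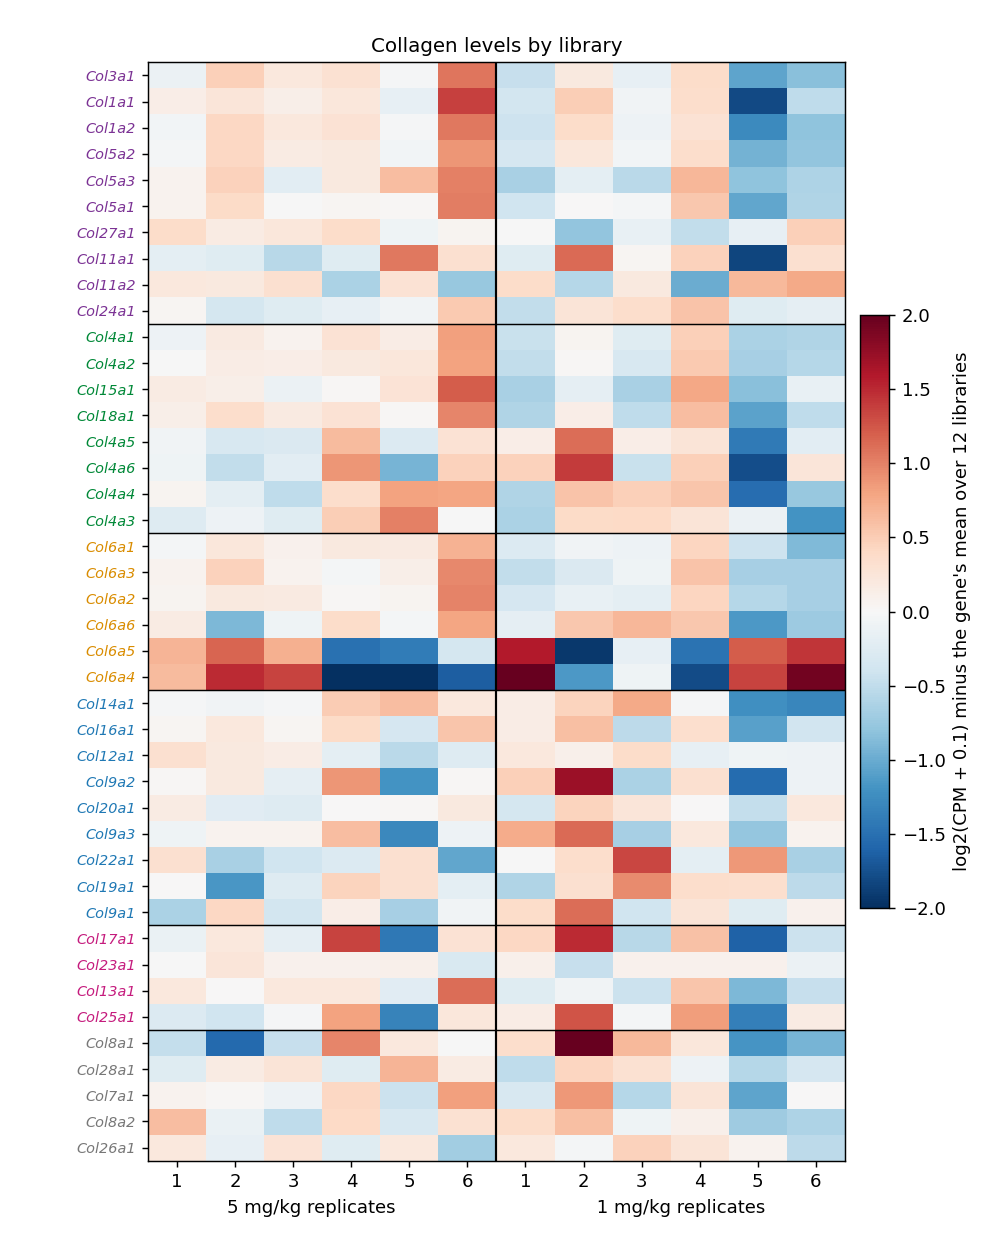
Level of the 42 tested collagen genes (rows, by class) in the 12 libraries (columns, by group), as log2(CPM + 0.1) minus the gene's mean over the libraries; red is above and blue below the mean, and values beyond ±2 take the end color. Types I, III, IV (α1, α2), V, VI (α1 to α3), XV and XVIII are high in 5 mg/kg replicate 6 and low in 1 mg/kg replicate 5, whereas Col6a4 and Col6a5 follow another order of libraries.

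Chains that can assemble into the same trimer were compared, with Col3a1 and Col1a1 as a pair that does not, within libraries, in 9 pairs computed on log2(CPM + 0.1) over 12 libraries. Col4a1 and Col4a2 were the closest, with Pearson r = 0.990 and Spearman rho = 0.979, and r = 0.982 without the 2 libraries farthest from the median. Each p was 1e-05, the smallest that 100000 permutations can give, and the adjusted p-values over the 9 pairs were 1.8e-05 and 9e-05. The ratio of Col4a1 to Col4a2 in RPKM was 1.43 ± 0.0615 (SD, n = 12) and stayed between 1.35 and 1.52, while Col4a1 itself varied 2.71-fold. The ratio of Col1a1 to Col1a2, whose protein trimer holds 2 α1 chains and 1 α2 chain, was 1.17 ± 0.177 and ranged from 0.798 to 1.43. The lowest value belonged to 1 mg/kg replicate 5. This pair had r = 0.961 (permutation p = 1e-05, adjusted 1.8e-05), rho = 0.930 (p = 4e-05, adjusted 0.000135) and r = 0.928 without the 2 farthest libraries.

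The specialized type IV pairs differed in how closely they moved. Col4a5 and Col4a6 had r = 0.925 (permutation p = 2e-05, adjusted 2.57e-05) and rho = 0.867 (p = 0.00056, adjusted 0.00072), with r = 0.775 without the 2 farthest libraries. Col4a3 and Col4a4 had r = 0.681 (permutation p = 0.0143, adjusted 0.0161), rho = 0.769 (p = 0.00538, adjusted 0.00605) and r = 0.608 without the 2 farthest, with only 53 to 276 reads per gene and library behind it. Within the groups r was 0.977 at 5 mg/kg and 0.995 at 1 mg/kg for Col4a1 and Col4a2, and 0.676 and 0.647 for Col4a3 and Col4a4.

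**Figure D5:**
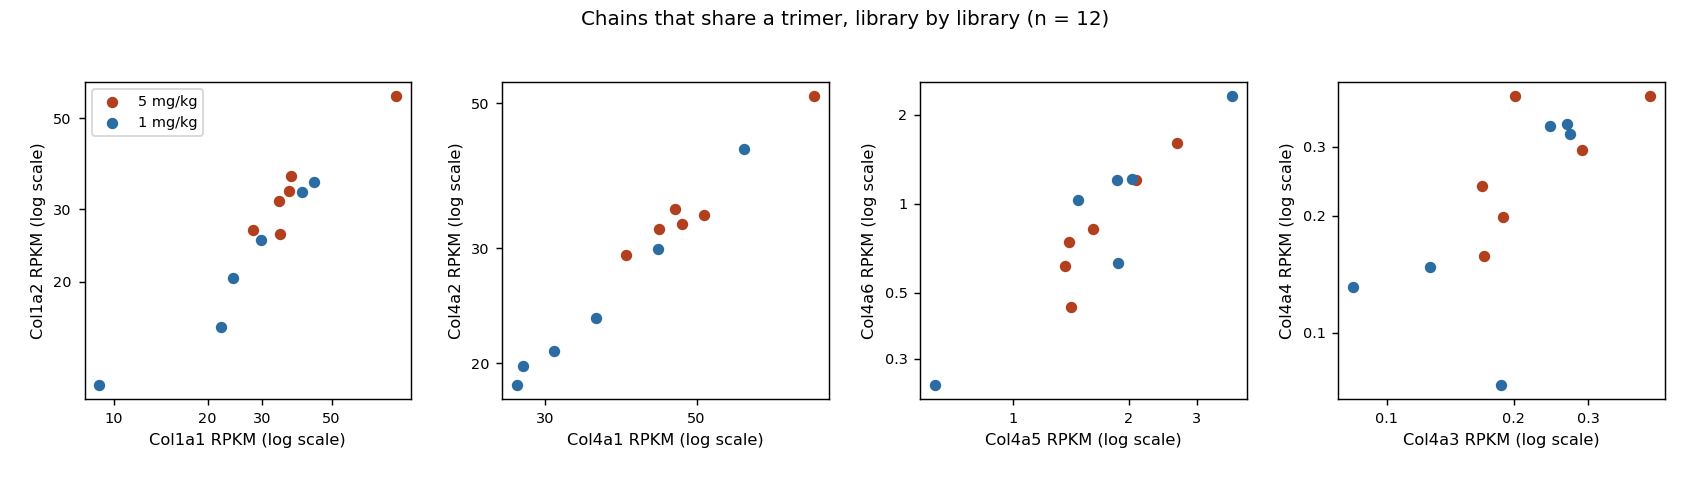
RPKM of the 2 chains of each of 4 trimer pairs, type I and the 3 type IV pairs, on log axes; each point is 1 of 12 libraries, red for 5 mg/kg and blue for 1 mg/kg. The Col4a1 and Col4a2 points lie along a line, with a ratio between 1.35 and 1.52, and the Col4a3 and Col4a4 points scatter, with a ratio between 0.498 and 2.53.

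The other pairs were types V, VI and VIII and the pair that shares no trimer. For Col5a1 and Col5a2, r was 0.963 (permutation p = 1e-05, adjusted 1.8e-05) and rho 0.902 (p = 0.00011, adjusted 0.000198), with r = 0.910 without the 2 farthest libraries. For Col6a1 and Col6a2, r was 0.944 (permutation p = 2e-05, adjusted 2.57e-05) and rho 0.937 (p = 5e-05, adjusted 0.000135), with r = 0.950 without the 2 farthest. The ratio within these 2 pairs ranged 1.32-fold and 1.38-fold over the libraries, and that of Col1a1 to Col1a2 ranged 1.79-fold. For Col6a1 and Col6a3, r was 0.922 (permutation p = 1e-05, adjusted 1.8e-05) and rho 0.944 (p = 6e-05, adjusted 0.000135), with r = 0.929 without the 2 farthest. Col3a1 and Col1a1, which form separate trimers, had r = 0.923 (permutation p = 1e-05, adjusted 1.8e-05) and rho = 0.881 (p = 0.00039, adjusted 0.000585), with r = 0.886 without the 2 farthest. This r lay within the range of the pairs that share a trimer. Col8a1 and Col8a2 had r = 0.63 (permutation p = 0.0274, adjusted 0.0274), rho = 0.587 (p = 0.0481, adjusted 0.0481) and r = 0.596 without the 2 farthest; r was 0.292 within the 5 mg/kg group and 0.909 within the 1 mg/kg group. Over all 861 pairs of tested collagens the median r was 0.33, 67 pairs lay above 0.9 and 284 lay below 0. These libraries share depth, composition and the 2 extreme samples, so the values describe these samples.

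The 3 type IV pairs lie head to head in the genome, each pair starting from a shared region in opposite directions. The annotated ends of Col4a1 and Col4a2 overlap by 22 bases on chromosome 8, those of Col4a4 and Col4a3 lie 71 bases apart on chromosome 1, and those of Col4a6 and Col4a5 lie 1308 bases apart on chromosome X. The promoter windows of Col4a1 and Col4a2 are shown because this pair kept the steadiest ratio of the 9. They come from RefSeq on GRCm38.p6, cover 250 bases before to 50 bases after the start of each gene, and lie at chr8:11312777-11313076 (−) for Col4a1 and chr8:11312555-11312854 (+) for Col4a2. Capitals mark the 78 bases that both windows hold (chr8:11312777-11312854), read in opposite directions.
Col4a1: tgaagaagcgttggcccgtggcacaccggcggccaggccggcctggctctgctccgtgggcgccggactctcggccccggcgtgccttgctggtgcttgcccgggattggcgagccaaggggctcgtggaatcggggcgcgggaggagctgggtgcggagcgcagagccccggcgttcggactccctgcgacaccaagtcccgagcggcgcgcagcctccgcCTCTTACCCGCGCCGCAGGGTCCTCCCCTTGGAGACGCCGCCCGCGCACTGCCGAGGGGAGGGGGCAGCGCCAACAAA
Col4a2: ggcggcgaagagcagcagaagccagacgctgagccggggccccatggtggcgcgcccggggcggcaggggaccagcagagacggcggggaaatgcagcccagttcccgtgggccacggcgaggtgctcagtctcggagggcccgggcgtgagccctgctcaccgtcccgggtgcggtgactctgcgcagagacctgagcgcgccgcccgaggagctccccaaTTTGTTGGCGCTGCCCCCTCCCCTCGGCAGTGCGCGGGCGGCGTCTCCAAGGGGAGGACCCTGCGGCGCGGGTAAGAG
The motif search covered both strands and used exact letters. RefSeq windows matched 35 of the 44 collagens, with 38 windows. CCAAT occurred in 13 of them (34.2%, against 37.4% of 32851 windows of the same length), GGGCGG in 23 (60.5%, against 35.7%) and TATAAA in 5 (13.2%, against 13.6%). Both windows shown held CCAAT and GGGCGG and neither held TATAAA. A match is a run of letters and shows no binding.

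Genes that make, finish, bind and break down collagen were examined beside the family, from 8 lists with 93 entries. Of the 89 tested, 0 passed, 66 had a positive log2 fold change and 8 lay at an unadjusted p under 0.05 (edgeR), against 47.2% positive and 1.93% over all genes tested. DESeq2 and limma-voom likewise passed no gene of any kind. The list of small proteoglycans and fibril partners had 11 positive and 2 negative members (median 0.26), and its summed level was 2376 ± 385 CPM in the 5 mg/kg group and 1940 ± 737 CPM in the other (SD, n = 6 in both). Basement membrane partners had 10 positive and 3 negative (median 0.24), and breakdown enzymes with their inhibitors 10 positive and 1 negative (0.19). For the TGF-beta signals, known inducers of collagen transcription, 5 were positive and 7 negative (median -0.017). Dcn and Lum, 2 of the proteoglycans, and Pcolce also belong to the fibroblast list.

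Folding and hydroxylation genes, which act on chains in the endoplasmic reticulum, had 15 positive and 5 negative members (median 0.23). Among them Fkbp10, a prolyl isomerase, had a log2 fold change of 0.40 ± 0.16, and P4hb, the most abundant, had 0.15 ± 0.13. Procollagen processing genes had 5 positive and 2 negative (median 0.24), with Pcolce, an enhancer of the cleavage of procollagen ends, at 0.44 ± 0.17 and Adamts2, a procollagen protease and the most abundant of the list, at 0.33 ± 0.29. Crosslinking genes of the lysyl oxidase family had 4 positive and 1 negative (0.20), with Loxl1 at 0.55 ± 0.26 and Lox at -0.058 ± 0.36.

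Receptors had 6 positive and 2 negative members (median 0.084). Mrc2, which takes up collagen for degradation, had 0.58 ± 0.22, and Itgb1, the integrin β1 chain and the most abundant receptor, had 0.085 ± 0.13. Among breakdown genes the protease inhibitors Timp1 and Timp3, the latter the most abundant, had 0.75 ± 0.32 and 0.040 ± 0.20. Sparc, a collagen-binding matrix protein and the most abundant of the fibril partners, had 0.40 ± 0.24, and Thbs2, a matrix protein of the thrombospondin family, had 0.38 ± 0.21. Nid1, a linker of type IV collagen and laminin, had 0.40 ± 0.28. In the TGF-beta list the smallest p belonged to Tgfbr1, a receptor, at -0.25 ± 0.096, and the receptor Tgfbr2, the most abundant, had 0.057 ± 0.17. The sums of 6 of the 8 lists were highest in 5 mg/kg replicate 6 or 1 mg/kg replicate 4, and 6 of them were lowest in 1 mg/kg replicate 6.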

How the data were processed

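Each deposited file holds raw counts of reads per gene for 1 library. STAR, HTSeq 0.6.1 and the build mm10 are named in the submitters' processing notes, and libraries came from the TruSeq v2 kit, which does not mark strand, per the labels' protocols. STAR's version, the annotation and the strand setting of the counts were not given in the sources used here. The 5 tally lines of each file (16.7% to 35.7% of tallied reads) stayed out of library sizes and tests. Symbols were matched for 55141 of 55487 IDs.

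Counts were filtered with filterByExpr by group, scaled with TMM and tested with edgeR 4.0.16 (R 4.3.3), quasi-likelihood F-test with robust dispersions, 5 mg/kg against 1 mg/kg over 12 libraries without covariates. Benjamini-Hochberg adjustment covered 18647 genes, with a threshold of 0.05. RPKM was computed from TMM-scaled CPM and the union of exons in GENCODE vM21 (GRCm38, also called mm10), which may differ from the authors' annotation. List levels used as terms in a fit were mean log2 CPM with a prior count of 2. Correlations used 100000 permutations. Alternatives were DESeq2 1.42.0, limma-voom (limma 3.58.1), other scalings and filters, list levels as terms and each library left out. The code was tested on simulated data. Members and lists were chosen with earlier results of these data known. The text names the 3 members with the highest mean RPKM of each class, the member with the smallest p of each class, any member with an unadjusted p under 0.05, the chains of the trimer pairs, and, from each pathway list, its most abundant gene and the one with the smallest p; other genes named were picked after their values were seen. Replicates are numbered in record order and pair nothing.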

Additional observations from a re-analysis of the deposited data

Results flagged for a closer look

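In 18 of 84 member groups (1 collagen in 1 folic acid group of 6 libraries) a single library stood apart from the rest, by a gap to its neighbor that exceeded Dixon's 95% critical value for 6 samples. For normally distributed values, chance flags about 1 in 20 groups. Here the gaps were measured in CPM without a log scale, and in all 18 flagged groups the single library was the highest. How often chance flags groups of such values was not tested, so 18 is not compared with that rate. Collagens that vary together are flagged together.

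At 5 mg/kg, replicate 6 stood above the others in 11 collagens. Among fibrillar genes it reached 529 CPM for Col1a1 (next highest 243), 702 CPM for Col1a2 (450), 181 CPM for Col5a1 (117) and 1.49 CPM for Col24a1 (1.04). Among basement membrane genes it reached 554 CPM for Col4a1 (383), 339 CPM for Col4a2 (228), 149 CPM for Col15a1 (78) and 90.5 CPM for Col18a1 (58.4). It also reached 204 CPM for Col6a1 (146), 187 CPM for Col6a2 (106) and 3.19 CPM for Col13a1 (1.65). This library had 20.8% of its reads outside genes and 0.750% of its gene reads on collagens, the highest collagen share of the 12.

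At 1 mg/kg, replicate 4 stood above the others in 4 collagens: 115 CPM for Col5a3 (next highest 63.9), 110 CPM for Col15a1 (58.3), 126 CPM for Col6a2 (84.0) and 255 CPM for Col6a3 (161). Its adipocyte list sum, 9289 CPM, and its endothelium list sum, 455 CPM, were each the highest of the 12. Replicate 2 of the same group stood apart in Col9a1 at 0.554 CPM (0.287), in Col9a2 at 5.49 CPM (2.27) and in Col8a1 at 78.1 CPM (26.7), and it held the highest luminal epithelium sum, 724 CPM. Whether these accompanying values have a part in the collagen levels was not tested.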

How the results depend on the processing

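Under 28 alternatives, 25 of them planned, 0 collagens passed the threshold. The number at an unadjusted p under 0.05, 2 as reported, was 5 with DESeq2, 7 with limma-voom, 6 with no filter, and 1 with upper-quartile factors, with library size alone or without mt-Rnr1 and mt-Rnr2. It was 12 with the B cell level and 16 with the luminal epithelium level as a term. The lowest edgeR adjusted p of the collagens was 0.889 and 0.909 in these fits. With the adipocyte and fibroblast levels it was 0.9994 and 0.9998, and the counts with these levels are not given here. The number at an unadjusted p under 0.05 ranged from 0 to 13 when 1 library was left out, and from 0 to 16 under the other alternatives. Over all genes the number was 776 of 48171 with DESeq2, 360 of 18647 with limma-voom and 1677 of 48208 with no filter. It was 358 of 18647 with upper-quartile factors, 170 of 18647 with library size alone and 355 of 18616 without mt-Rnr1 and mt-Rnr2. The B cell level gave 842 of 18647 and the luminal epithelium level 539 of 18647. Leaving out 1 library gave 200 of 18960 to 1445 of 18926. For collagens, the term and library-pair alternatives added after seeing the data gave 4 (reads outside genes as a term) and 0 (without 5 mg/kg replicate 6 and 1 mg/kg replicate 5). Over all genes these gave 370 of 18647 and 1051 of 18557. The cause was not tested.

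The fibrillar median stayed positive under all of them (0.18 to 0.64), as did the basement membrane median (0.037 to 0.54). Of 587 alternative values of 21 named collagens, 571 kept their sign. The 16 reversals fell on 6 genes. Leaving out 1 library moved Col17a1 between -0.42 and 0.39 and Col12a1 between -0.17 and 0.019. Col17a1 turned to 0.047 with limma-voom and 0.034 with the luminal epithelium level, and to 0.0037, 0.011, 0.13, 0.39 and 0.0055 without 5 mg/kg replicate 1, 3 or 5 or 1 mg/kg replicate 2 or 4. Col23a1 turned to -0.083 with library size alone. Col12a1 turned to 0.025 with the adipocyte level and 0.019 without 5 mg/kg replicate 5. Col14a1 turned to -0.058 with the adipocyte level, -0.18 with the fibroblast level and -0.14 without 1 mg/kg replicates 5 and 6. Without these 2, Col16a1 was -0.025; without 5 mg/kg replicate 6 and 1 mg/kg replicate 5, it was -0.013 and Col7a1 -0.12. The causes were not tested.

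No paired analysis was possible because the labels carry no replicate numbers. Col2a1 and Col10a1, with at most 16 reads per library, did not pass the main filter and entered only the fits with DESeq2 and with no filter, where neither passed.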
